A study of Mus musculus with 12 samples.

Results

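The experiment asked whether interferon alpha (IFNα) moved the same transcripts, in the same direction and by the same amount, in 2 forms of the B16F10 mouse melanoma line. One form carried wild-type IRF7 (WT) and the other carried IRF7 with the C435A substitution, which puts alanine in place of a cysteine. Each was sequenced without and with IFNα, in 3 libraries per group (WT control, WT IFNα, C435A control, C435A IFNα), and all 12 of the 12 libraries entered. The quantity of interest was the interaction, the log2 fold change with IFNα in the C435A line minus that in the WT line. A positive value means a larger rise or a smaller fall in the C435A line. The labels leave out how the C435A line was made, whether it is 1 clone, and the dose and duration of IFNα. They name no separate cultures, so that the spread behind each p-value may be that of technical repeats.

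Type I interferons bind the receptor IFNAR1/IFNAR2, whose kinases JAK1 and TYK2 phosphorylate STAT transcription factors. With IRF9 these form a complex that binds the interferon-stimulated response element (ISRE) of antiviral genes, while STAT dimers bind the gamma-activated site (GAS) found in genes such as Irf1. IRF7 is itself induced by this complex and, once activated, drives the interferon genes, so that it amplifies a response already begun.

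The cells carried the melanocyte markers throughout, with Pmel, a melanosome protein, at 865 to 1220 FPKM (the deposited level, scaled for transcript length and library size) and Sox10, a lineage transcription factor, at 99.9 to 167 FPKM. RNA of tissues other than melanoma was found in 8 libraries. The 7 lung epithelial genes listed, surfactant and secretory proteins, summed to between 42.4 and 65.4 CPM (counts relative to the TMM-adjusted total of a library) in 1 of 3 WT control, 3 of 3 WT IFNα, 3 of 3 C435A control and 1 of 3 C435A IFNα libraries. In the other 4 libraries they summed to at most 0.228, and 5 or 6 of the 7 genes were at 0. WT control 1 and C435A IFNα 3 were thus unlike their replicates. C435A IFNα 3 also differed most from its replicates over 6318 abundant genes, with an SD of the log2 ratio of 0.436 and 0.434, against 0.274 between those. More WT libraries held lung transcripts with IFNα than without, and fewer C435A libraries did, a layout with the sign of a negative interaction. The lung genes, which defined this layout and so carry its sign, had a median interaction of −2.98 with 0 of 7 positive. Of genes outside that definition, 3 red cell genes had a median of −4.73, and 10 endothelial and fibroblast genes a median of −1.50. Among 8 leukocyte genes listed, 6 were tested at a median of −0.10, summing to between 62.3 and 123 CPM. Total counts were 60511573 to 75927461 per library.

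**Figure D1:**
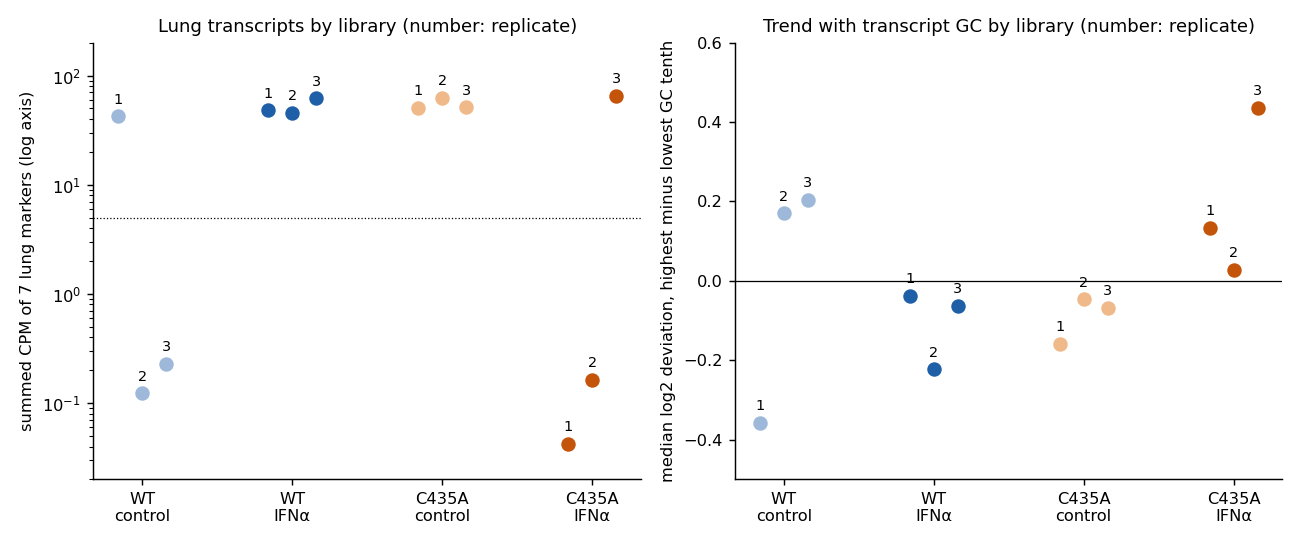
Left, summed CPM of 7 lung genes in each library (log axis, dotted line at 5). Right, the difference in median log2 deviation from the mean of all libraries between the tenth of genes with the highest and that with the lowest transcript GC. Numbers are replicates: WT control 1 and C435A IFNα 3 hold lung transcripts unlike their replicates, and stand at −0.358 and 0.436 on the right.

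No gene passed the test of the interaction. Of 17590 genes tested 0 (0%) had an adjusted p under 0.05 by the quasi-likelihood test of edgeR, adjusted after Benjamini and Hochberg, and the smallest adjusted p was 0.916. At an unadjusted p under 0.05 there were 909 genes (5.17%), 484 higher (2.75%) and 425 lower (2.42%). DESeq2 called 14 (0.0796%), 4 higher and 10 lower, and limma called 0 of 10094. The responses themselves were few. With IFNα 4 genes passed in the WT line (0.0227%), namely Id1, Id3, Irf1 and Col9a3, and 1 in the C435A line (0.00569%), H2-K2. With a term for libraries that held lung transcripts the calls of Id3, Irf1, Col9a3 and H2-K2 were lost (edgeR adjusted p = 0.0891, 0.172, 0.183 and 0.0663). That of Id1 was kept, and Ifna4 was called in C435A. Lung transcripts varied only within WT control and C435A IFNα, so the term rests on how 1 library in each differed from its 2 replicates. At 5 FPKM or more the median standard error of the interaction was 0.274 with the term and 0.198 without. A lost call thus need not mean a smaller change. Among genes with a mean of at least 5 FPKM in the highest group, the smallest interaction p belonged to Id1 and H2-K2. These were also the only 2 of the 14 DESeq2 calls at that level, and the only listed interferon, class I or BMP-SMAD genes among them.

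Id1 encodes an inhibitor of helix-loop-helix transcription factors that responds to BMP signals. Its level was 36.6, 41.7 and 41.9 FPKM in the WT controls and 17.8, 19.4 and 16.4 FPKM in WT IFNα. In the C435A line it was 31.5, 33.7 and 32.7 FPKM in the controls and 22.99, 26.7 and 29.97 FPKM with IFNα. All 3 treated libraries lay below all 3 controls in each line, and all 3 treated C435A libraries lay above all 3 treated WT libraries. Id1 fell by 1.17 on the log2 scale in WT, past the threshold (edgeR adjusted p = 0.00316, and 0.0621 without WT IFNα 3), and its value in C435A was −0.32 (adjusted p = 0.427). The interaction was 0.86 ± 0.17 (SE, 95% interval 0.48 to 1.23, unadjusted p = 0.000219 in edgeR, adjusted p = 0.916). In DESeq2 it was 0.87 and passed, at an adjusted p of 0.0148. It stayed between 0.75 and 0.97 when each library was left out in turn, and between 0.75 and 0.99 over the other alternatives.

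Id3, a second inhibitor of the same family, had the same order of groups. It was at 130, 164 and 172 FPKM in the WT controls and at 75.4, 81.2 and 75.1 FPKM in WT IFNα. The C435A controls held 145, 147 and 163 FPKM and C435A IFNα 109, 123 and 102 FPKM. Treated and control libraries did not overlap in either line. The log2 fold change was −1.01 in WT, where Id3 fell (edgeR adjusted p = 0.00643, but 0.067 without WT control 2 and 0.081 without WT IFNα 3), and −0.47 in C435A, where it did not pass. The interaction was 0.55 ± 0.17 (unadjusted p = 0.00600 in edgeR) and failed the adjustment. With the term for lung transcripts it was 0.26.

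Of 20 Id genes and BMP-SMAD targets listed, 15 were tested. Their interaction had a median of 0.26 against −0.02 over all genes tested, 12 of the 15 values were positive, 0 passed and 2, Id1 and Id3, had an unadjusted p under 0.05 and were higher, against 2.75% of all genes tested. Id2, the family member at 89.5 FPKM in its highest group, had log2 fold changes of −0.64 in WT and −0.53 in C435A, an interaction of 0.11. Smad6, an inhibitory SMAD that BMP signals induce, was at −0.75 and −0.37. Atoh8, a helix-loop-helix factor, was at −0.38 and −0.12.

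H2-K2 lies in the class I histocompatibility region of chromosome 17 (34193608 to 34197811 as deposited) and is a transcribed unprocessed pseudogene in the GENCODE M21 annotation. Its level was 7.67, 8.99 and 7.67 FPKM in the WT controls and 9.10, 8.27 and 9.58 FPKM in WT IFNα. The C435A controls held 9.52, 8.87 and 11.6 FPKM, and C435A IFNα held 21.2, 20.6 and 24.7 FPKM. The treated C435A libraries stood above the other 9, among which treated and control libraries of the WT line overlapped. The log2 fold change was 0.13 in WT and 1.13 in C435A, where it rose past the threshold (edgeR adjusted p = 0.0329). The rise missed the threshold, at 1.03 to 1.19, without C435A control 1 or 2, WT IFNα 1 or 2, or any C435A IFNα library. The interaction was 0.999 ± 0.20 (95% interval 0.56 to 1.44, unadjusted p = 0.00023 in edgeR, adjusted p = 0.916). DESeq2 gave 1.01 with an adjusted p of 0.0148, and the fits that each left out 1 library gave 0.89 to 1.12. None of the 1860 windows of 150 bases in the annotated H2-K2 transcripts recurred in a transcript of another gene, H2-K1 included. The search took exact matches only, so it does not show how reads from similar sequences were counted. H2-K1, the classical class I heavy chain, had log2 fold changes of −0.26 in WT and 0.04 in C435A.

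**Figure D2:**
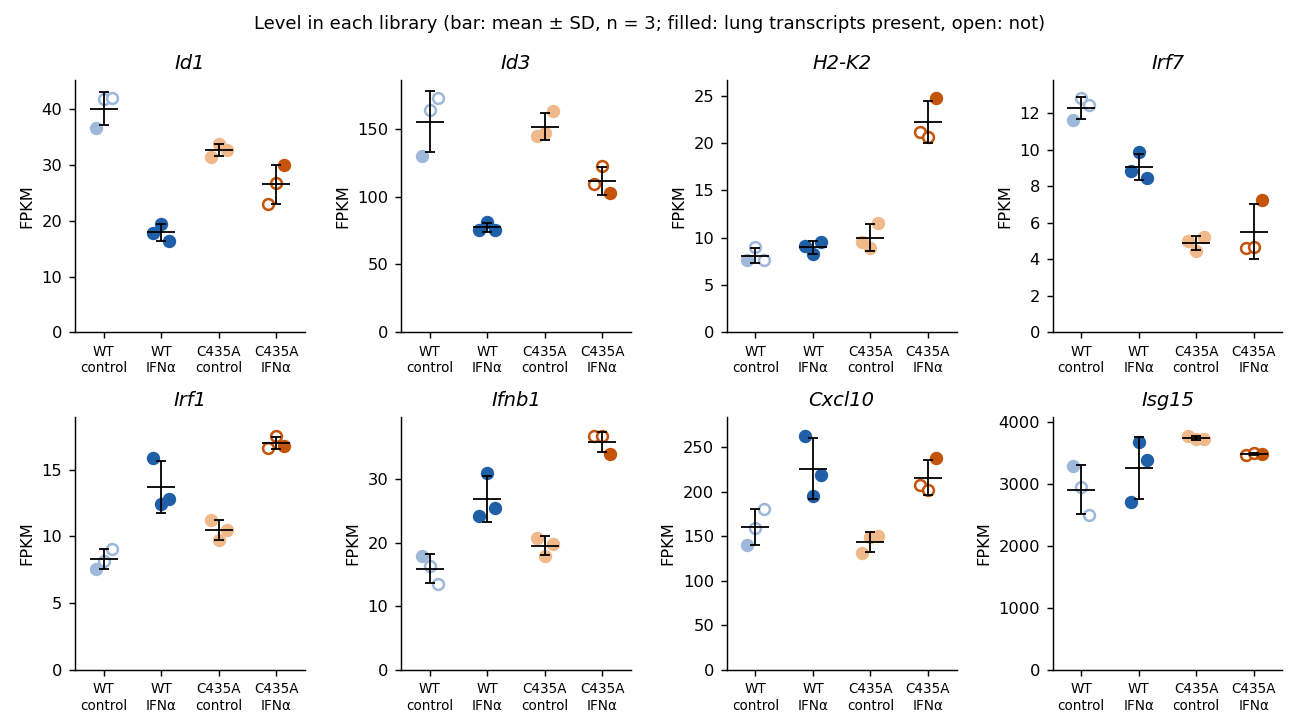
Level in FPKM (y axis, from 0) of 8 genes in each of the 12 libraries. Points are libraries, filled where lung transcripts were present and open where not, and bars are the mean ± SD of 3 libraries. The means of Id1 and Id3 with IFNα lie nearer their controls in the C435A line, H2-K2 stands highest in treated C435A libraries, and Irf1, Ifnb1 and Cxcl10 lie higher with IFNα in both lines.

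Irf1, the interferon-induced transcription factor, had nearly the same response in the 2 lines. Its level was 7.58, 8.18 and 9.08 FPKM in the WT controls and 15.9, 12.4 and 12.8 FPKM in WT IFNα. The C435A line held 11.2, 9.70 and 10.5 FPKM without and 16.6, 17.5 and 16.8 FPKM with IFNα. Treated libraries lay above controls in both lines without overlap. The log2 fold change was 0.71 in WT, past the threshold (edgeR adjusted p = 0.0202), and 0.68 in C435A (adjusted p = 0.0655). The WT call was lost, at 0.64 to 0.73, without any 1 of the WT libraries, C435A control 3 or C435A IFNα 1. The interaction was −0.03 ± 0.14, with a 95% interval of −0.33 to 0.27. A difference of 1 log2 unit, or 2-fold, in either direction lies outside it. Leaving out single libraries moved it between −0.09 and 0.05.

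The promoters of 3 genes are shown because they hold the elements that the interferon pathway is known to use, in genes that lay higher with IFNα in both lines (Irf1, Ifna4) or whose values differed in sign (Isg15). They run from 250 bases before to 50 after the annotated start, 5′ to 3′ on the gene's strand, and are RefSeq sequences of build GRCm38.p6. Capitals mark matches on either strand to a pair of GAAA set 2 bases apart, the core of an ISRE, or to TTC and GAA set 3 bases apart, the core of a GAS. Overlapping matches were merged. Of 32851 RefSeq promoters of this length 3.44% hold the first and 8.30% the second.
Irf1 (chr11:53769764-53770063, plus strand): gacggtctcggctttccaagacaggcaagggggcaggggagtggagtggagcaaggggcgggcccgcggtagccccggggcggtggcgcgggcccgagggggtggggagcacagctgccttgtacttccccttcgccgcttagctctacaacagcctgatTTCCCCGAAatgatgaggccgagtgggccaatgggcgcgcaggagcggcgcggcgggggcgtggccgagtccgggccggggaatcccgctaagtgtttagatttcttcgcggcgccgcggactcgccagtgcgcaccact
Ifna4 (chr4:88841566-88841865, plus strand): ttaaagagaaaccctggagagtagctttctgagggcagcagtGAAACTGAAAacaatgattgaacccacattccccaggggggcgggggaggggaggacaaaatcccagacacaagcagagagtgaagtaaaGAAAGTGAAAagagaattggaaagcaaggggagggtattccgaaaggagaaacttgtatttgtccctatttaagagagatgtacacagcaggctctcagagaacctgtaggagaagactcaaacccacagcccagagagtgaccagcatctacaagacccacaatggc
Isg15 (chr4:156200769-156201068, minus strand): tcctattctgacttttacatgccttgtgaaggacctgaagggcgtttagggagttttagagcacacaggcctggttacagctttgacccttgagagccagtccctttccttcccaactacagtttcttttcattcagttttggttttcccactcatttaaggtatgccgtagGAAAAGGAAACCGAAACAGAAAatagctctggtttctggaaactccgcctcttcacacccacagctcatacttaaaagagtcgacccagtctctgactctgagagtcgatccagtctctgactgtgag
The Irf1 window shown has 1 GAS match and 0 ISRE matches, and that of the other RefSeq entry of Irf1 has 0 of each. The Ifna4 window has 2 ISRE matches and that of Isg15 has 3, which overlap. Other windows were scanned and are not shown. Those of Ifnb1, which lay higher with IFNα in both lines, and of Irf7, Id3 and H2-K1 have 0 of each, and that of Cxcl10 has 1 ISRE match. The 3 windows shown were thus picked for their matches and do not stand for the genes that respond. A match is a description of the letters and not a measured site.

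Among the interferon genes, 5 of the 20 listed were among the deposited genes, and 2 of these had enough counts to be tested. Ifnb1, interferon beta, was at 17.9, 16.3 and 13.4 FPKM in the WT controls and 24.2, 31.0 and 25.5 FPKM in WT IFNα. The C435A values were 20.8, 17.9 and 19.9 FPKM without and 36.7, 36.8 and 34.0 FPKM with IFNα. The libraries separated by treatment in both lines, and the log2 fold changes of 0.75 and 0.85 gave an interaction of 0.11 ± 0.23, with a 95% interval of −0.39 to 0.61.

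Ifna4, an IRF7-driven interferon alpha gene, was at 4.35, 2.19 and 1.73 FPKM in the WT controls and at 6.06, 9.004 and 8.72 FPKM in WT IFNα. In C435A it was at 0.368, 0.837 and 0.831 FPKM without and at 4.09, 3.91 and 4.83 FPKM with IFNα. The treated libraries lay above the controls in each line, and the C435A libraries lay lower than the WT libraries of the same treatment. The log2 fold changes were 1.497 in WT and 2.61 in C435A, neither past the threshold (edgeR adjusted p = 0.441 and 0.0864). The C435A rise did pass in 11 of 27 fits, among them those with library totals as scaling, robust estimation and the lung term (adjusted p = 0.0393, 0.0348 and 0.0442). The difference of the 2 lines was 1.11 ± 0.53 (95% interval −0.04 to 2.25, unadjusted p = 0.0564 in edgeR), and on the scale of log2(FPKM + 1) it was 0.37. It was 0.58 without WT control 1, and 2.05 with the lung term, where its adjusted p was 0.651.

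Irf7, the substituted gene, was at 11.6, 12.8 and 12.5 FPKM in the WT controls and 8.84, 9.87 and 8.45 FPKM in WT IFNα. The C435A controls held 4.99, 4.44 and 5.20 FPKM, and C435A IFNα 4.63, 4.69 and 7.23 FPKM. Treated libraries were below controls in WT, while in C435A they overlapped and the third stood above the rest. The log2 fold change of −0.45 in WT and 0.16 in C435A gave an interaction of 0.61 ± 0.24 (unadjusted p = 0.0216 in edgeR). Without C435A IFNα library 3 it was 0.35 and with a term for lung transcripts it was 1.03. A count per gene does not show which codon a transcript carries.

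Of 12 interferon regulatory factor genes 0 passed and 2, Irf7 and Irf3, were higher at an unadjusted p under 0.05, against 2.75% of all genes tested, at a median interaction of −0.01. Irf3, the constitutive relative of Irf7, had WT controls at 17.5, 17.2 and 17.0 FPKM above WT IFNα at 15.6, 13.6 and 14.7 FPKM. Its C435A controls at 15.8, 15.3 and 15.6 FPKM lay below C435A IFNα at 18.3, 16.6 and 16.1 FPKM. The log2 fold changes were −0.26 ± 0.10 in WT and 0.10 ± 0.10 in C435A, neither past the threshold. The interaction of Irf3 was 0.36 ± 0.14 and did not pass, so an opposite direction is not established. Of the 12 genes 1 had an unadjusted p under 0.05 in edgeR with the GC trend removed, and 0 with the GC and length trends removed. Irf9, the DNA-binding partner of the STATs, was at 0.06 ± 0.15.

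The receptor and JAK-STAT genes showed no member with an unadjusted p under 0.05 among 25 tested (0 passed). Their interaction had a median of 0.08, and 21 of the 25 had a 95% interval inside 2-fold either way, against 53.4% of all genes tested and 89.7% of those at 5 FPKM or more. Stat2 was at 0.31 in WT and 0.33 in C435A, an interaction of 0.02 ± 0.18. Socs1, which inhibits the JAK kinases, was at 0.72 and 0.87, an interaction of 0.16 ± 0.30. Usp18, which removes ISG15 and restrains the receptor, was at −0.04 and 0.00. With a term for lung transcripts the interaction turned negative for Stat2, Socs1 and Usp18 (−0.23, −0.40 and −0.35).

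**Figure D3:**
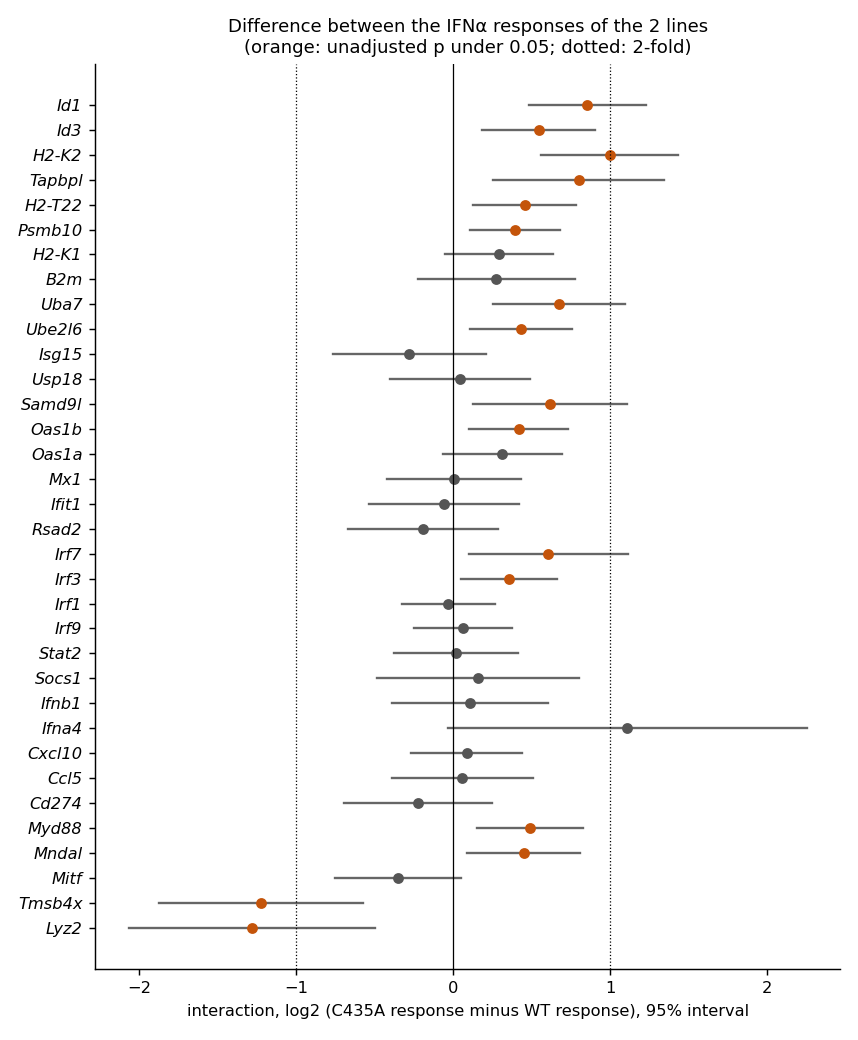
Interaction (x axis, log2, C435A response minus WT response) of 34 named genes with its 95% interval from edgeR over 12 libraries. Orange points have an unadjusted p under 0.05, none has an adjusted p under 0.05, and dotted lines mark 2-fold. Irf1, Stat2, Mx1 and Cxcl10 lie near 0 inside the dotted lines, while Id1 and H2-K2 lie at 0.86 and 0.999.

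The antiviral interferon-stimulated genes, effectors that block viral entry, translation or replication, had mostly small interactions. Of 58 listed, 57 were tested and 0 passed. At an unadjusted p under 0.05 there were 6 higher and 1 lower of the 57, against 2.75% and 2.42% of all genes tested. All genes at 5 FPKM or more, a level that 45 of the 57 reached, had 4.99% and 1.54%. The median interaction was 0.05 against −0.02 over all genes tested, with 32 of 57 values positive. The median response was 0.09 in WT and 0.12 in C435A. At an unadjusted p under 0.05 in edgeR, 7 responses were higher and 6 lower in WT, and 15 higher and 0 lower in C435A. Over all 17590 genes the counts were 471 and 486 in WT, and 1003 and 812 in C435A. With median responses this near 0, a small interaction does not show that a response was kept. For 48 of the 57 (84.2%) the 95% interval lay inside 2-fold either way, between the 53.4% of all genes tested and the 89.7% of those at 5 FPKM or more. The lowest value was −2.56 ± 1.69 for Ifitm1, which lay under 1 FPKM. Among the 45 at 5 FPKM or more it did so for 43, the others being Samd9l and Uba7, and the values ran from −0.40 to 0.68.

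Mx1, a GTPase that traps viral nucleocapsids, was at 16.5, 13.2 and 18.0 FPKM in the WT controls and 25.2, 18.9 and 18.0 FPKM in WT IFNα. The C435A controls held 25.7, 21.1 and 20.1 FPKM and C435A IFNα 30.1, 33.3 and 24.4 FPKM. Treated and control ranges overlapped in C435A and lay just apart in WT. The log2 fold changes of 0.36 and 0.37 gave an interaction of 0.01 ± 0.20. Isg15, the ubiquitin-like modifier, was at 3290, 2948 and 2503 FPKM in the WT controls and 2716, 3676 and 3392 FPKM in WT IFNα. The C435A libraries held 3782, 3738 and 3728 FPKM without and 3469, 3500 and 3487 FPKM. The WT ranges overlapped and the treated C435A libraries lay just under their controls, with an interaction of −0.28 ± 0.23. Rsad2, Ifit1 and Oas1a were at −0.19 ± 0.22, −0.06 ± 0.22 and 0.31 ± 0.18, and 32.4% of the 150-base windows of Oas1a recur in Oas1g, so its value is uncertain.

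The 6 higher members were Uba7, Samd9l, Ube2l6, Oas1b, Zbp1 and Shisa5. Uba7 and Ube2l6 are the activating and conjugating enzymes that attach ISG15 to proteins. Uba7 was at 4.41, 6.11 and 6.21 FPKM in the WT controls and 4.99, 3.65 and 4.82 FPKM in WT IFNα, which overlap. In C435A it was at 4.33, 5.17 and 5.26 FPKM and at 6.202, 6.64 and 6.28 FPKM, which do not. Its interaction was 0.68 ± 0.20 (unadjusted p = 0.00388 in edgeR). Ube2l6 was at 374, 354 and 341 FPKM and 344, 341 and 303 FPKM in WT without and with IFNα. Its C435A levels were 339, 339 and 344 FPKM without and 437, 422 and 418 FPKM, and the interaction was 0.43 ± 0.15. In neither gene did the interaction pass. Samd9l, Oas1b, Zbp1 and Shisa5 had interactions of 0.62, 0.42, 0.40 and 0.33. With a term for lung transcripts 2 of the 57 antiviral genes tested had an unadjusted p under 0.05 in edgeR, against 7 without it. Over all 17590 genes the counts were 1277 and 909. Within the libraries that held lung transcripts the interaction of Uba7 was 0.40.

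**Figure D4:**
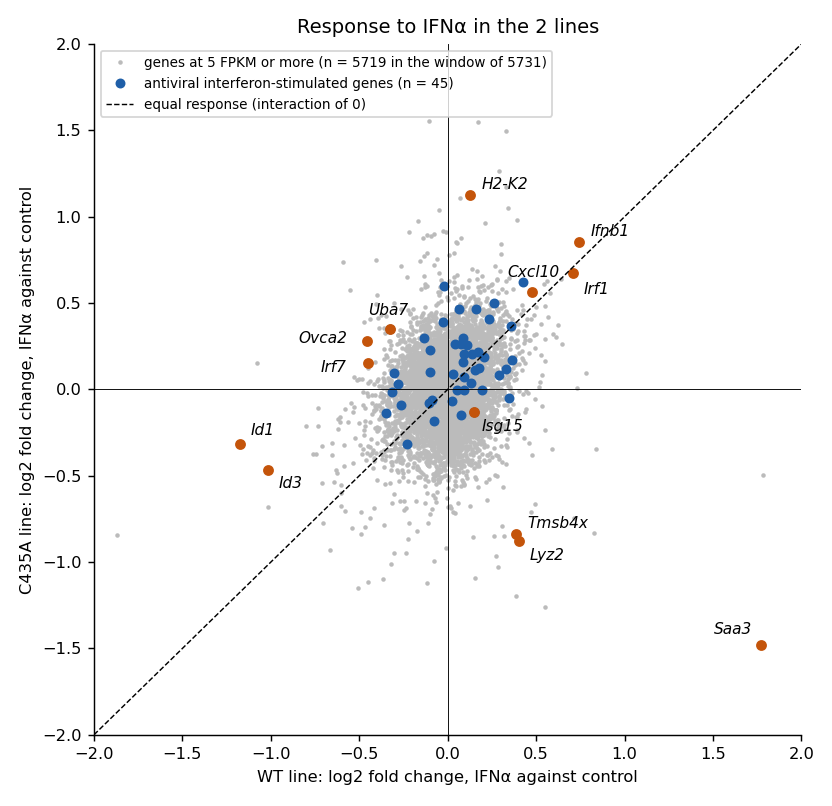
Log2 fold change with IFNα in the WT line (x axis) against that in the C435A line (y axis) for genes at 5 FPKM or more (grey), with antiviral interferon-stimulated genes in blue and named genes in orange. The dashed line marks equal responses: Irf1, Ifnb1 and Cxcl10 lie near it, Id1, Id3 and H2-K2 above it, and Saa3, Lyz2 and Tmsb4x below it.

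Nucleic acid sensors, which detect foreign or displaced DNA and RNA, had 5 of 26 tested members higher and 0 lower at an unadjusted p under 0.05, and 0 passed. The shares were 2.75% and 2.42% over all genes tested, and 4.99% and 1.54% over those at 5 FPKM or more. The sensors had a median interaction of 0.19, with a median response of 0.09 in WT and 0.19 in C435A. The 5 were Myd88, the adaptor of Toll-like receptors, at 0.49 ± 0.16, Zbp1 at 0.40 ± 0.19, and Ifi204, Ifi211 and Mndal of the AIM2-like family at 0.56, 0.48 and 0.45. Of the windows of Ifi204 6.77% recur in Ifi211, so their values are not independent. Mndal was at 7.67, 7.46 and 8.91 FPKM in the WT controls and 10.6, 9.55 and 9.04 FPKM in WT IFNα. The C435A controls held 5.98, 5.17 and 7.05 FPKM and C435A IFNα 10.6, 10.5 and 9.36 FPKM. Treated libraries lay above controls in both lines, with log2 fold changes of 0.27 and 0.72. Ddx58, Ifih1, Mavs and Sting1, the RNA sensors RIG-I and MDA5, their adaptor and the adaptor of cGAS, had interactions of 0.08, 0.05, 0.09 and 0.21.

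The class I presentation genes had a median interaction of 0.14, with 17 of 25 values positive. None passed, and at an unadjusted p under 0.05 there were 4 higher (H2-K2, Tapbpl, H2-T22 and Psmb10) and 1 lower (H2-Q6, under 1 FPKM), against 2.75% and 2.42% of all genes tested. Over all genes at 5 FPKM or more the shares were 4.99% and 1.54%. Tapbpl, a peptide-editing relative of tapasin, was at 0.80 ± 0.25 and H2-T22, a non-classical heavy chain, at 0.46 ± 0.15. Psmb10, a catalytic subunit of the immunoproteasome, was at 60.2, 69.6 and 68.4 FPKM in the WT controls and 60.6, 55.3 and 56.6 FPKM in WT IFNα. In C435A it was at 65.3, 67.5 and 65.9 FPKM and at 75.6, 75.6 and 77.0 FPKM. Treated C435A libraries lay above their controls, whereas the WT ranges overlapped in FPKM, and the interaction was 0.39 ± 0.13. B2m, the light chain, was at 0.28 ± 0.23, H2-D1 at 0.33 ± 0.17 and Tap1, which carries peptides into the endoplasmic reticulum, at 0.01 ± 0.16. With a term for lung transcripts the median of the list was −0.01, and that of the antiviral genes was also −0.01.

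The chemokines and cytokines had 0 of 30 members past the threshold and 0 at an unadjusted p under 0.05. Their median of −0.15 turned to 0.35 with a term for lung transcripts. Cxcl10, which attracts T cells, was at 140, 159 and 181 FPKM and 263, 196 and 219 FPKM in WT without and with IFNα. In C435A it was at 131, 149 and 150 FPKM and at 207, 202 and 238 FPKM, so that treated libraries lay above controls in both lines. The interaction was 0.09 ± 0.17. Cxcl9 was at 0.97 in WT and 0.96 in C435A, and Ccl4 at 0.64 in both. Ccl5 was at −0.12 and −0.06. The interferon-inducible GTPases of the GBP and IRG families had 0 of 17 at an unadjusted p under 0.05, a median of 0.00 and a range from −0.26 for Ifi47 to 0.53 for Gbp11. Cd274, which encodes PD-L1, was at 0.40 and 0.17, an interaction of −0.23 ± 0.22.

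Among higher genes at 5 FPKM or more, predicted genes and pseudogenes aside, the smallest p after Id1 belonged to Ovca2, Qtrt1, Jmjd7, H1f2, Taf6, Yipf2, Pcdhgb2, Sin3b and Uba7, with interactions of 0.52 to 0.74, none past the threshold. Ovca2, a serine hydrolase, was at 13.4, 14.6 and 13.6 FPKM in the WT controls, 9.97, 11.4 and 9.18 FPKM in WT IFNα, 9.33, 10.5 and 10.4 FPKM in the C435A controls and 12.03, 12.5 and 12.7 FPKM in C435A IFNα. Treated libraries lay below controls in WT and above them in C435A without overlap, and the interaction was 0.74 ± 0.17. Among lower genes the order was Tmsb4x, Hmgb3, Lyz2, Saa3, Gpatch4, Trmt6, Brms1, Rchy1, Birc5 and Atp6v1c1, at −3.25 to −0.42. Lyz2, a macrophage and lung lysozyme, was at 46.7, 24.3 and 25.9 FPKM and 34.6, 49.0 and 45.9 FPKM in WT without and with IFNα. Its C435A levels were 56.8, 50.8 and 56.3 FPKM without and 32.7, 22.5 and 35.4 FPKM. The interaction was −1.28 ± 0.37. Tmsb4x, which binds actin monomers, was at −1.22 ± 0.30, and Saa3, an acute-phase protein, at −3.25 ± 0.98. Saa3 was at 3.95, 0.885 and 0.528 FPKM in the WT controls and 0.967, 1.16 and 5.12 FPKM in C435A IFNα. For Lyz2, Tmsb4x and Saa3 alike, WT control 1 and C435A IFNα 3 stood highest in their groups. These are the libraries that held lung transcripts unlike their replicates. The cause was not tested.

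Genes were also counted by direction over the whole table, with overlap judged on CPM, the scale of the test, whereas the overlap of single genes is given in FPKM. At 5 FPKM or more, treated and control libraries did not overlap for 813 of 5731 genes in WT (14.2%) and for 1501 in C435A (26.2%). In 195 genes (3.40%) they did so in the same direction in both lines, 96 higher and 99 lower, and in 43 (0.75%) in opposite directions, 9 higher in WT and 34 higher in C435A. Judged on FPKM the counts were 613 in WT (10.7%), 1528 in C435A (26.7%), 161 in the same direction (2.81%) and 33 in opposite directions (0.576%), so that genes such as Psmb10, Yipf2 and Sin3b are apart in WT on 1 scale only. At an unadjusted p under 0.05 there were 957 genes in WT (5.44%) and 1815 in C435A (10.3%). Of the 419 at 5 FPKM or more chosen by this p in WT, 315 (75.2%) had the same sign in C435A, and the median size was 0.34 in WT and 0.15, counted in the WT direction, in C435A. Chosen by C435A instead, 642 of 916 (70.1%) had the same sign in WT, with medians of 0.37 and 0.08. Each selection enlarges the values of the line it was made in, so neither pair of medians compares the lines. Over the 5731 genes the 2 responses, which share no library, had a Pearson correlation of −0.03 and a Spearman correlation of 0.17 across genes, which are not independent.

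Col9a3, a collagen chain that fell in WT (−1.32, a call lost without any 1 of the 6 WT libraries), was at 1.87, 2.22 and 2.10 FPKM in the WT controls and 0.946, 0.880 and 0.684 FPKM in WT IFNα. Its C435A controls held 1.36, 1.51 and 1.56 FPKM and C435A IFNα 0.941, 0.876 and 0.635 FPKM. Treated libraries lay below controls in both lines, and the interaction was 0.44 ± 0.25, which was 0.013 within the libraries that held lung transcripts.

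The precision set what could be told. The standard error of the interaction had a median of 0.31 over all genes tested and 0.20 at 5 FPKM or more, against 0.14 for the response of either line at that level. The median half-width of the 95% interval was 0.43 at 5 FPKM or more. For 1 gene to pass alone it would need an unadjusted p of 2.84e-06, which at the median gene of that level takes an interaction of 1.49, or 2.80-fold, and over all genes 2.32, or 4.99-fold. The smallest p was 6.79e-05. For 5143 of the 5731 genes (89.7%) the 95% interval excluded a 2-fold difference in either direction, as it did for 9399 of all 17590 (53.4%). These intervals come from the fit without a lung term. With that term the median standard error at 5 FPKM or more was 0.274.

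Of the 14 DESeq2 calls 12 lay under 5 FPKM, 2 higher and 10 lower. The lower ones included Fabp4 and Adipoq of fat cells, Actc1 of cardiac muscle and Krtdap of keratinocytes. Fabp4 had the smallest edgeR p of all genes, at 0.0575, 0.0574 and 0.0311 FPKM in the WT controls and 0.0985, 5.14 and 1.78 FPKM in WT IFNα. It was at 5.26, 2.16 and 0.146 FPKM in the C435A controls and 0.0228, 0.0115 and 0.165 FPKM in C435A IFNα. The level was high in 2 of 3 libraries of each of 2 groups and low elsewhere, so its mean rests on those 4 libraries.

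Within the 8 libraries that held lung transcripts, which leave 1 WT control and 1 C435A IFNα library each assumed to vary like the other groups, 47 genes were called (0.245%), 17 higher and 30 lower, and 16 of them lay under 5 FPKM. Id1 and H2-K2 were at 0.98 and 1.15 there and were not among them (edgeR adjusted p = 0.131 and 0.139). The 4 libraries without lung transcripts hold 2 of the 4 groups and give no interaction. Leaving out WT control 1 and C435A IFNα 3 together gave 136 calls (0.752%), 3 higher and 133 lower, of which 123 lay under 5 FPKM. Those at 5 FPKM or more included the lung genes Sftpc and Scgb1a1, globins, Saa3, Lyz2 and Tmsb4x. In that fit lung transcripts and the interaction cannot be told apart.

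The interaction also ran with the base composition of the transcript. Over 5705 genes at 5 FPKM or more its Spearman correlation with transcript GC was 0.549 across genes, which share the same 12 libraries, with −0.259 for the WT response and 0.425 for the C435A response. The median interaction was −0.20 in the tenth of genes with the lowest GC (median 40.8%) and 0.21 in that with the highest (60.1%). At that level 374 genes (6.53%) had an unadjusted p under 0.05, and 286 (4.99%) were higher and 88 (1.54%) lower, with a median GC of 55.5% and 46.7%. With the lung term 329 were higher and 201 lower at this p (9.25% together). With the GC trend of each library removed, a correction chosen after seeing the data, the correlation was 0.069 and 0 genes passed. At an unadjusted p under 0.05 in edgeR 217 genes were then still higher and 59 lower (4.84% together). Id1 was then at 0.75 and H2-K2 at 0.85, Ifit1 turned from −0.06 to 0.12 and Socs1 from 0.16 to −0.02. Values with the lung term or with GC removed are given for some other genes and lists. They show how far an estimate moves, and the cause of a move was not tested.

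**Figure D5:**
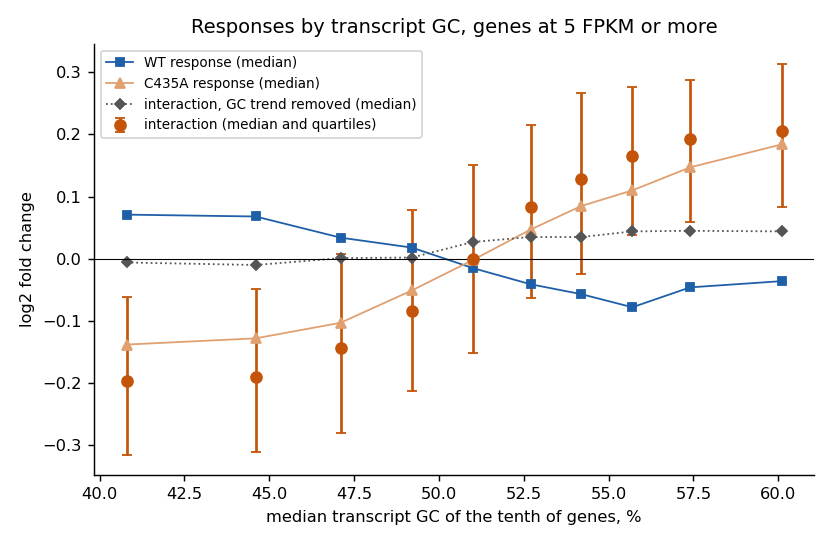
Median log2 fold change (y axis) in 10 groups of genes at 5 FPKM or more ordered by transcript GC (x axis, %). Orange points are the interaction with its quartiles, and lines are the WT response, the C435A response and the interaction with the GC trend removed. The interaction runs from −0.20 to 0.21 before and from −0.01 to 0.04 after the trend was removed.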

How the data were processed

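RNA of 12 B16F10 libraries, 3 per group, was measured. Per the labels' protocols they were poly(A)-selected, made strand-specific with dUTP, given molecular identifiers and read from both ends. Named in the submitters' processing notes are StringTie 1.3.4d, HISAT2 2.0.4 and cutadapt 1.9, with UMI-tools, edgeR, DESeq2 and GRCm38. The counting rule, its use of strand and the annotation used are not given in the sources at hand. The authors deposited whole-number counts per gene and FPKM, scaled for length and depth, per the file headers. Only 2.17% of deposited gene starts equal those of GRCm38, so positions are given as deposited.

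The counts were fitted with edgeR 4.0.16 in R 4.3.3 (TMM, filterByExpr, 4 group means over 12 libraries, quasi-likelihood, two-sided). The Benjamini-Hochberg threshold was 0.05 over 17590 genes, and the standard error is the change divided by the square root of F. Common variation between libraries was 28.9%, above counting error, and limits precision. Fits were tested on simulated data. Alternatives were DESeq2 1.42.0, limma 3.58.1 on log2(FPKM + 1) or (FPKM + 0.1) with FPKM of at least 1 in 3 libraries, other scalings and filters, robust estimation, a replicate block, lung and GC corrections, and each library left out. GC came from the longest GENCODE M21 transcript.

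The 23 lists were chosen, like the comparison, with earlier results of these data known, and no list was tested as a whole. Named were genes past the threshold (up to 10 a direction at 5 FPKM or more, without predicted genes or pseudogenes), those with the smallest interaction p up to 10 a direction, at most 2 members of each list, and 23 of 24 genes listed to be given in any case. The other one and 1 list member are not reported here. Other genes were chosen after their values were seen, among them Col9a3, Id2, Smad6, Atoh8, Samd9l, Oas1b, Zbp1, Cxcl9, Ccl4 and the low-level tissue transcripts.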

Additional observations from a re-analysis of the deposited data

How the results depend on the processing

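The interaction had 0 calls in edgeR under both other scalings, both filters, robust estimation, the lung term, both GC corrections and each fit that left out 1 library (0 to 0), and 0 in limma at either pseudocount. It had 14 in DESeq2, 47 in libraries with lung transcripts and 136 without WT control 1 and C435A IFNα 3. The WT response had 65 calls in DESeq2, 2 in limma on log2(FPKM + 0.1), 1 with the lung term, 7 with the GC trend removed, 16 with the GC and length trends removed, 87 without those 2 libraries and 0 to 7 without single libraries. With library totals as scaling its calls were 0 higher and 3 lower, against 1 and 3. The C435A response had 2 with library totals, 4 at 5 FPKM or more, 145 in DESeq2, 3 in limma at either pseudocount, 3 with robust estimation, 1135 in libraries with lung transcripts (1 treated library), 3 and 4 with the GC and with the GC and length trends removed, 110 without the 2 libraries and 0 to 2 without single libraries. The median standard error over the genes each fit tested was 0.847 without a filter, which adds low genes, 0.201 at 5 FPKM or more and 0.196 in limma. Over genes at 5 FPKM or more it was 0.198 without a filter and 0.274 with the lung term. The GC corrections and the fit without 2 libraries were chosen after seeing the data. The cause of these differences was not tested.

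Deviations of same-numbered libraries correlated at −0.436 to 0.312 (median 0.0187), over 0.1 in 6 of 18 pairs. Those of libraries with other numbers correlated at −0.436 to 0.658 (median 0.00937), over 0.1 in 9 of 36 pairs. These values do not settle whether the replicate numbers pair the libraries. With the replicate block 0 genes passed in the interaction, 2 in WT and 0 in C435A.

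Signs of small interactions were not fixed. With the lung term and in libraries with lung transcripts respectively, Stat2 was at −0.225 and −0.238, Mx1 −0.090 and −0.115, Ifit1 0.376 and 0.338, Usp18 −0.349 and −0.385, Ccl5 −0.393 and −0.425, Socs1 −0.403 and −0.414 and Cxcl2 0.060 and 0.055. With GC removed Ifit1 was at 0.118 and Socs1 at −0.018, and with GC and length removed Stat2 was at −0.078, Ifit1 0.115 and Socs1 −0.068. Mx1 was at −0.006 at 5 FPKM or more and B2m at −0.032 without the 2 libraries. Over fits without single libraries the ranges were −0.08 to 0.129 for Mx1, −0.02 to 0.271 for Ifnb1, −0.08 to 0.139 for Stat2, −0.311 to 0.099 for Ifit1, −0.073 to 0.314 for Socs1, −0.085 to 0.05 for Irf1, −0.081 to 0.243 for Ccl5, −0.118 to 0.222 for Usp18 and −0.001 to 0.171 for Cxcl10.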

Other observations

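Lists outside the interferon pathway also gave 0 genes past the threshold of the interaction in edgeR. The 24 cholesterol synthesis genes had a median interaction of 0.00, with Stard4, a sterol carrier, lowest in p at −0.65 ± 0.23. The 25 mitosis genes had a median of −0.09, and in 24 of them the 95% interval lay inside 2-fold either way. Birc5, the survivin of the chromosomal passenger complex, was at −0.42 ± 0.14. Its treated WT libraries, at 43.8 to 46.2 FPKM, lay above their controls at 34.6 to 43.5 FPKM, while the C435A ranges of 34.3 to 40.2 FPKM with and 39.3 to 42.4 FPKM without IFNα overlapped. The 26 DNA replication genes had a median of −0.17 and 0 members at an unadjusted p under 0.05. The 22 collagens had 6 lower and 0 higher at that level, against 2.42% and 2.75% of all genes tested, and a median of −0.34, which was −0.03 with a term for lung transcripts.

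The 20 genes of the integrated stress response had a median of 0.10, with 16 positive and 2 higher at an unadjusted p under 0.05, against 2.75% of all genes tested. The median was −0.05 with a term for lung transcripts, and with the GC trend removed 0 members had such a p. These were Ppp1r15a, which recruits a phosphatase to eIF2α, at 0.36 ± 0.15 and Chac1, which degrades glutathione, at 0.41 ± 0.18. Ppp1r15a was at 14.6, 15.8 and 18.6 FPKM in the WT controls and 22.6, 19.1 and 17.1 FPKM in WT IFNα, which overlap in FPKM. The C435A controls held 16.7, 18.3 and 16.2 FPKM and C435A IFNα 24.4, 29.6 and 25 FPKM, which do not. Of 24 pigmentation genes Mc1r, the melanocortin receptor, was the 1 at an unadjusted p under 0.05, at 0.53 ± 0.17, while Mitf, the lineage factor, was at −0.35 ± 0.19. Nos1, the neuronal nitric oxide synthase of the series title, lay under 0.05 FPKM in every library.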
